A study of Caenorhabditis elegans with 2 samples.

Results

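The genes described here encode subunits of the nuclear RNA polymerases and of the factors that place them on promoters. They are the protein-coding genes of *Caenorhabditis elegans* whose names start with rpb-, rpc-, rpoa-, rpac-, snpc-, taf-, gtf-, tbp- or brf-, which gave 57 of 19973 genes in the annotation of the ce11 assembly. The measurements were ChIP-seq peaks of EGL-18, taken from whole young adults of strain RW12252, in which CRISPR inserted a TY1, EGFP and 3xFLAG tag into *egl-18* (allele st12252). The worms were grown for 63 h from bleached embryos held as starved first-stage larvae, and chromatin sheared to 200 to 800 bp was precipitated with an anti-GFP antibody. There was 1 group with 2 biological replicates, replicate 1 and replicate 2, and every worm carried the tagged allele. No untagged or input control was analysed here, and whole worms mix the cells that hold EGL-18 with those that do not.

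The nuclear polymerases divide the work of transcription in animals. Polymerase I makes the large ribosomal RNAs, polymerase II makes messenger RNAs and most spliceosomal small nuclear RNAs (snRNAs), and polymerase III makes transfer RNAs, the smallest ribosomal RNA and other short RNAs. The TATA-binding protein (TBP) serves all of them, inside TFIID for polymerase II and with BRF1 in TFIIIB for polymerase III, while the snRNA activating complex (SNAPc) recognises snRNA promoters of either kind. EGL-18 is a GATA-type factor known from the seam cells of the epidermis and from vulval development.

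The value of a gene is the highest peak height among peaks with a summit in its promoter window, which runs from 1000 bp before a transcript start to 200 bp past it. Each list was read on its own, so a replicate's value can come from another place in the window than the series summit. Height is the authors' signal column, its scale is not stated, and library depth is unknown, so heights are compared as ranks within a list. The ranked list of the series held 117695 peaks, and those of replicate 1 and replicate 2 held 64911 and 54253. A ranked list keeps weak peaks too, whereas the thresholded list of the series keeps 699 peaks at an irreproducible discovery rate (IDR) of 0.01. The IDR measures how consistently a peak ranks in 2 inputs, and the authors' score column restates it so that 830 stands for an IDR of 0.01 and 1000 is the highest value. With 1 group there is no contrast between conditions to test, and the values below are a description.

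As a group, these genes were not set apart from other genes in the peak lists. Of the 57, *snpc-3.4* alone had a summit of the thresholded list in its promoter window, which is 1.75% of the members beside 1.87% of all protein-coding genes. By role, the count was 0 of 5 polymerase III parts, 0 of 33 polymerase II parts, 0 of 5 subunits common to all polymerases, 0 of 6 polymerase I and I/III parts, 1 of 7 SNAPc genes and 0 for *tbp-1*. The thresholded lists of the single replicates had none of the 57, where 0.546% of all genes were in that of replicate 1 and 0.751% in that of replicate 2. These shares are near the background, and with so few calls they separate the group from other genes in neither direction. By height in the ranked list of the series, 28 members lay above the median of all genes, 49.1% beside 50% by construction. The 10% of genes with the greatest heights took in 3 members, *taf-12*, *snpc-3.4* and *rpoa-49*, which is 5.26% beside 10%.

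The letters under some of the leading summits are printed below. The windows are those of *snpc-3.4* and *taf-12*, which had the highest scores, and of *rpac-19* and *rpb-11*. Among members with a summit within 200 bp of the start, *rpac-19* and *rpb-11* were the highest after *snpc-3.4*. By series height *rpoa-49* and *gtf-2H2C* stood above both, with summits further from the start. Each printed window is 151 bases centred on the summit and runs 5′ to 3′ on the strand of the member. The letters are from the RefSeq genome sequence of WBcel235, the same assembly as ce11. Capitals mark the GATA words, which are AGATAA or AGATAG and also TGATAA or TGATAG, the word ACGCAG and the further word CGCGCA. All were searched on both strands, and words can overlap.
snpc-3.4 at chrIII:4019873-4020023, plus strand: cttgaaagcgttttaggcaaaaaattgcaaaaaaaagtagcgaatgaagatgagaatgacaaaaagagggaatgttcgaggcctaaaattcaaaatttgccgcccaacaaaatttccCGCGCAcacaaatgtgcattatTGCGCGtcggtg
taf-12 at chrIII:11870139-11870289, minus strand: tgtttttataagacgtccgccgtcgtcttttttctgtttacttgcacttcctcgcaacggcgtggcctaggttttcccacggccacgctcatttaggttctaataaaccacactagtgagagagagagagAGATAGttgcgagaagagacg
rpac-19 at chrIII:9629902-9630052, minus strand: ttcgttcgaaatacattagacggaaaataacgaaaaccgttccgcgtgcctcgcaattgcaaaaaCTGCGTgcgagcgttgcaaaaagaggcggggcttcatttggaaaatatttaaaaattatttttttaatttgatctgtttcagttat
rpb-11 at chrII:14059857-14060007, plus strand: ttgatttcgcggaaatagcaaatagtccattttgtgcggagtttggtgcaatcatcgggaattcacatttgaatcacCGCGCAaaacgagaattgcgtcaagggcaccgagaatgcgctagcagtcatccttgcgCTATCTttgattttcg
The *snpc-3.4* window held CGCGCA on both strands and no GATA word, and that of *rpac-19* held ACGCAG on the strand opposite to the gene. The *taf-12* window held a GATA word at the end of a run of alternating G and A. That of *rpb-11* held a CGCGCA word and a GATA word. Each printed window thus held a marked word, which was not so for the leading members in general. Among the 12 highest members, *rpoa-49*, *gtf-2H2C*, *gtf-2A2*, *taf-6.1*, *taf-5*, *rpb-7*, *rpb-3* and *taf-3* had none of these words within 75 bp of the summit. A match describes the letters and is not by itself a binding site.

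The SNAPc genes held the one thresholded peak. *snpc-3.4* encodes a worm relative of the SNAPC3 subunit, which takes part in binding snRNA promoters. Its peak at chrIII:4019810-4020085 had its summit 89 bp upstream of the start, with a height of 64.3 in the series, 31.2 in replicate 1 and 35.8 in replicate 2. It had a score of 894, and by height it ranked 644 of the 699 thresholded peaks, so it was among the weaker ones that passed. In the replicates' ranked lists the same place ranked 4320 of 64911 peaks and 1069 of 54253, with scores of 122 and 221, and it was in neither replicate's thresholded list. It was also absent from the authors' conservative thresholded list, which had no member at all beside 1.6% of all genes, and its score in the other ranked list of the series was 736. The summit lay between annotated protein-coding genes, and no other such gene had it in its window.

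The other SNAPc genes had middling to low heights in the series, none among the top 25% of all genes. The paralogues *snpc-3.2* and *snpc-3.1* had heights of 11.4 and 7.74 in the series, the lowest of all members with a peak. Both had a peak in replicate 1, of 16.1 and 19.3, at percentiles of 56 and 66.4 in that list, and none in replicate 2. The series summit of *snpc-3.1* lay inside *puf-7* and nearer to its start. There neither replicate had a peak, and the replicate 1 peak was 961 bp upstream of *snpc-3.1*. By series height the paralogues of 1 subunit took places 2, 45 and 46 among the 46 members with a ranked peak. *snpc-1.1* had 34.5 and *snpc-1.2* 31.7 in the series, each with 17.3 in replicate 2 and no peak in replicate 1, and their summits lay nearer to the starts of *spdl-1* and *Y39E4B.5*. *snpc-4*, which in worms is also needed for piRNA transcription, had 15.6 in the series and no peak in either replicate. *snpc-1.3*, known from piRNA transcription in the male germline, had no ranked peak in any of the 4 ranked lists. The median height of the 7 genes was 15.6, at the 26.8th percentile of all genes.

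**Figure D1:**
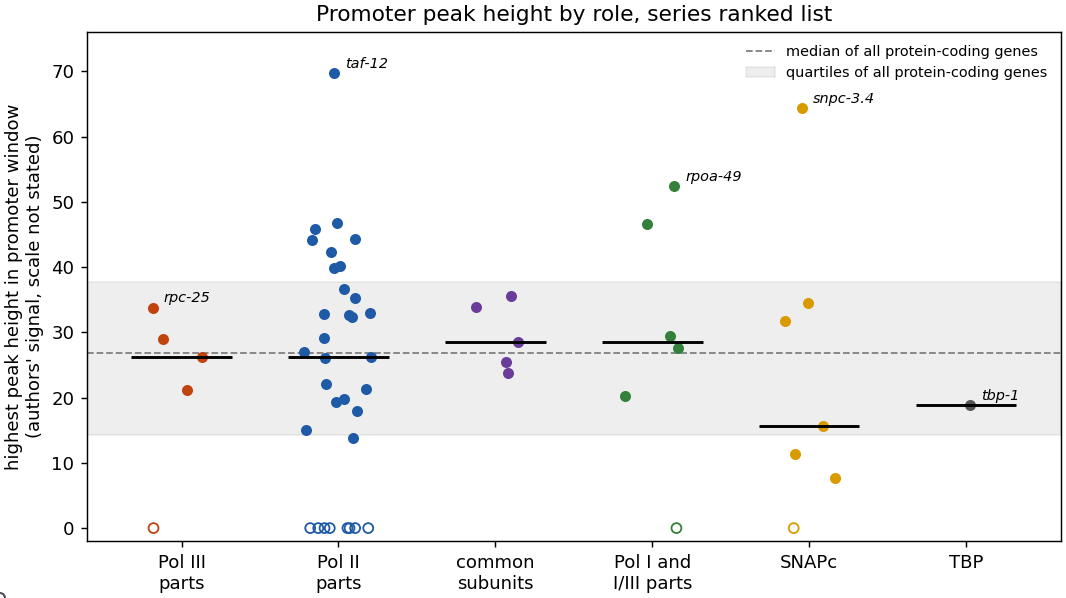
Highest promoter peak height of each member in the ranked list of the series (y axis, authors' signal) by role (x axis). Filled points are genes with a peak, open circles genes with none, black bars medians counting those as 0, the dashed line the median of all protein-coding genes (26.8) and the grey band their quartiles (14.3 to 37.8). Of the 57 members 11 lie above the band, led by *taf-12*, *snpc-3.4* and *rpoa-49*.

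No gene name in the annotation starts with gtf-3, and the name rule leaves out parts named otherwise, such as the tftc- genes. The polymerase III parts taken in here numbered 5, all named rpc- or brf-. *rpc-25*, a subunit of the polymerase stalk, was the highest of them, with a height of 33.8 in the series, 18.1 in replicate 1 and 18.5 in replicate 2. Its summit lay 160 bp upstream of its start, inside the neighbouring gene *tftc-3*, named for the polymerase III factor TFIIIC. *rpc-2*, the second-largest subunit, had 28.98 in the series, 10.48 in replicate 1 and 19.6 in replicate 2, with the series summit 808 bp upstream in the gene *hach-1*. The 19.6 of replicate 2 was at the start of *rpc-2* itself, and at the series summit replicate 2 had 16.1. *rpc-11*, the small subunit that takes part in transcript cleavage and termination, had 26.2 in the series, 11.4 in replicate 1 and 15.2 in replicate 2. The 3 genes had a peak in their windows in both replicates, but that of *rpc-11* in replicate 2 lay 43 bp upstream of the start, away from the series summit 864 bp upstream, where replicate 2 had none. *brf-1*, the TFIIIB subunit, had 21.2 in the series and 19.1 in replicate 2 with no peak in replicate 1, and *rpc-1*, the largest subunit, had no peak in the series or either replicate. None of the 5 was among the top 25% of all genes by height, which held 11 of the 57 members, or 19.3%, and the highest score in any of their windows was 293.

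The polymerase II parts numbered 33 and reached higher single values, but these were drawn from 33 genes beside 5 polymerase III parts. The top 25% of all genes by height held 8 of the 33, which is 24.2% beside 25% by construction. The series median of polymerase II parts was close to that of polymerase III parts in the promoter window used here. It was further from it in the narrower and wider windows given below. In the series, the median height was 26.2 for polymerase III parts and 26.3 for polymerase II parts, counting genes without a peak as 0, beside 26.8 for all genes. In replicate 1 the medians were 10.48 for polymerase III parts and 16.0 for polymerase II parts, beside 14.1 for all genes. In replicate 2 they were 18.5 for polymerase III parts and 10.8 for polymerase II parts, beside 10.3 for all genes. The order of the 2 roles was opposite in the 2 replicates, so a difference between them was not larger than the spread between replicates. A ranked peak in both replicates was present for 3 of 5 polymerase III parts and 12 of 33 polymerase II parts, beside 39.3% of all genes.

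**Figure D2:**
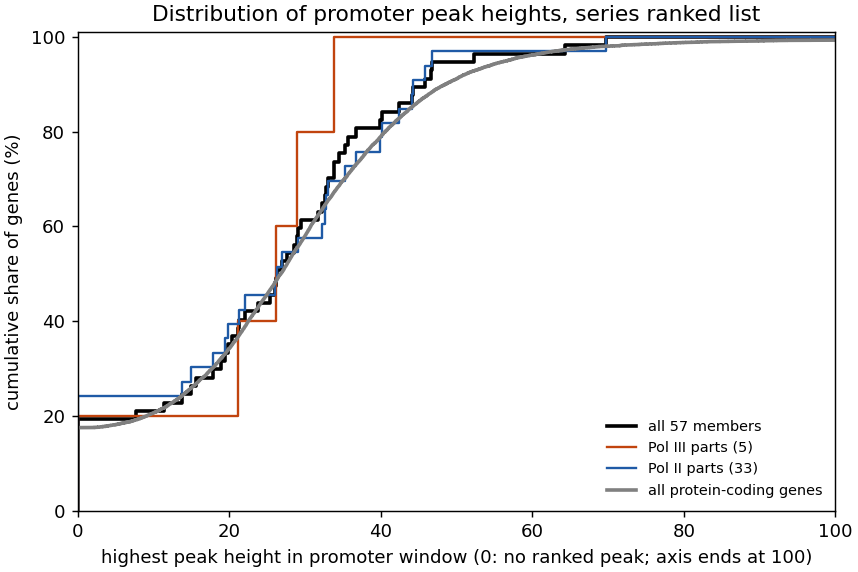
Cumulative share of genes (y axis, %) up to a given promoter peak height in the ranked list of the series (x axis, authors' signal), for all members, the polymerase III parts, the polymerase II parts and all protein-coding genes. Each curve starts at its share of genes without a ranked peak, which is 19.3% of members and 17.5% of all genes, and the curve of the 57 members follows that of all genes.

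Among the polymerase II core subunits, 6 genes specific to that enzyme, all had a ranked peak in the series. *rpb-11* and *rpb-3* encode the pair with which assembly of the enzyme starts. *rpb-11* had a height of 45.9 in the series and 41.2 in replicate 2, the highest of any member there, but 15.99 in replicate 1. The replicate 1 peak of *rpb-11* was elsewhere in the window, with none within 150 bp of the series summit. *rpb-3* had 39.9 in the series, 17.5 in replicate 1 and 15.6 in replicate 2. Its series summit lay 949 bp upstream in the proteasome gene *pas-4*. The replicate 2 value lay 149 bp upstream, and near the series summit replicate 2 had 22.8, outside the window. *rpb-7*, a stalk subunit, had 40.2 in the series, 18.1 in replicate 1 and 24.2 in replicate 2, with a summit inside *Y54E10BR.2*. Its stalk partner *rpb-4* had 22.05 in the series, 9.55 in replicate 2 and no peak in replicate 1. *rpb-9* had 33.01 in the series with a peak only in replicate 2, and *rpb-2*, the second-largest subunit, had 32.8 in the series with a peak only in replicate 1. Of the 6 core genes, 5 were above the median of all genes in the series and 3 had a peak in both replicates.

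TFIID subunits, which recognise the core promoter together with TBP, gave the highest and many of the absent values. *taf-12* had the highest series height of all members, 69.7, with 27.8 in replicate 1 and 30.7 in replicate 2 at the same place. Its peak at chrIII:11870076-11870351 had a score of 638, short of the 830 of the thresholded list, and its summit lay 933 bp upstream of *taf-12* outside any other annotated protein-coding gene and with no other gene start nearer. *taf-6.1*, one of a pair of genes for a histone-fold subunit, had 44.2 in the series, 23.8 in replicate 1 and 27.7 in replicate 2, and it had 5 starts and 9 ranked peaks in its windows, where the median member had 1. *taf-5*, which forms the TFIID scaffold, had 42.4 in the series, 25.5 in replicate 1 and 23.5 in replicate 2. *taf-3* had 36.7 in the series, 23.5 in replicate 1 and 22.4 in replicate 2. These 4 genes had a ranked peak in their windows in both replicates and lay above the median height of all genes. Apart from *taf-12*, some of the replicate values came from another place than the series summit. Within 150 bp of that summit, *taf-5* had 17.24 in replicate 1 and the same 23.5 in replicate 2. There *taf-3* had 21.96 in replicate 1 and 9.77 in replicate 2, and *taf-6.1* had 21.64 and 26.01 in the same order. At the other end, *taf-1*, the largest TFIID subunit, and *taf-7.1*, *taf-7.2*, *taf-8* and *taf-10* had no ranked peak in the series or in either replicate. The 17 *taf* genes had a median series height of 26.1, and 7 were above the median of all genes in that list.

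The remaining general factors of polymerase II had a low median in the series and in replicate 2, but not in replicate 1. *gtf-2H2C*, a subunit of TFIIH, which opens promoter DNA and acts in DNA repair, had 46.7 in the series, 26.9 in replicate 1 and 18.2 in replicate 2, with its summit inside *spop-1*. Of the other TFIIH genes, *gtf-2H5* had 35.2 and *gtf-2H1* 15.0 in the series, each with a peak in replicate 1 only. *gtf-2H3* and *gtf-2H4* had no ranked peak in the series, so the subunits of this one complex differed widely. *gtf-2A2*, a TFIIA subunit that steadies TBP on DNA, had 44.2 in the series, 22.8 in replicate 1 and 25.02 in replicate 2. *gtf-2E2* of TFIIE had 29.1 in the series with both replicates present, and its partner *gtf-2E1* had no peak. The TFIIF genes *gtf-2F1* and *gtf-2F2* had 19.4 and 13.8 in the series. *gtf-2F1* had no peak in either replicate. *gtf-2F2* had 18.7 in replicate 1 only, 659 bp upstream, away from its series summit 57 bp downstream of the start. The 10 *gtf-2* genes had a median of 17.2 in the series, 17.7 in replicate 1 and 0 in replicate 2, and 4 were above the median of all genes in the series. As percentiles among all genes, their median was 29.4 in the series, 61.2 in replicate 1 and 23.1 in replicate 2. The *rpb* core genes stood at 72.2 in the series, 58 in replicate 1 and 68.5 in replicate 2, and the *taf* genes at 48.3, 20 and 51 in the same lists. A gene without a peak stood at 20 in replicate 1 and 23.1 in replicate 2. The 20 of the *taf* genes and the 23.1 of the *gtf-2* genes thus stand for a median height of 0. The order of these groups differed between the replicates. The split of polymerase II parts into core, TFIID and other factors was made after the values were seen.

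Polymerase I and I/III parts held the third-highest value, which was seen at its place in 1 replicate only. *rpoa-49*, a polymerase I subunit, had 52.4 in the series and 31.3 in replicate 1, the highest of any member there, but 4.73 in replicate 2. The series summit lay inside the proteasome gene *rpt-4* and in *nfyc-1*, 457 bp upstream of *rpoa-49*, and replicate 2 had no peak within 150 bp of it. *rpac-19*, shared by polymerases I and III, had 46.6 in the series, 17.0 in replicate 1 and 29.9 in replicate 2. Its summit, 92 bp upstream, also lay in the window of *tbg-1*, the gamma-tubulin gene. *rpac-40*, its partner in assembly, had no ranked peak in the series, none in replicate 1 and 20.1 in replicate 2. Of the large polymerase I subunits, *rpoa-1* had 27.6 in the series, 16.1 in replicate 1 and 23.2 in replicate 2, and *rpoa-2* had 20.3 in the series and 23.3 in replicate 2 only. As ranks among all genes, the median of this role was at the 37.9th percentile in replicate 1 and the 81.2nd in replicate 2. The 37.9th is a midpoint between genes with and without a peak, since 3 of the 6 had a peak in replicate 1. *rpoa-12* had 29.5 in the series and no peak in either replicate. The median of the 6 was 28.6.

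Subunits common to all polymerases lay close together in the series but not in the replicates. *rpb-6* was the highest, at 35.6 in the series and 19.1 in replicate 1 with no peak in replicate 2. *rpb-12* was the lowest, at 23.7 in the series with no peak in either replicate. *rpb-10*, *rpb-8* and *rpb-5* lay between, at 33.9, 28.6 and 25.4 in the series. In replicate 1 these 3 had 11.2, 22.2 and 16.0, and in replicate 2 *rpb-10* had 14.1, *rpb-8* had 9.10 and *rpb-5* had no peak. *tbp-1* had a height of 18.9 in the series and 19.8 in replicate 1 with no peak in replicate 2, at the 32.1st percentile of all genes.

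**Figure D3:**
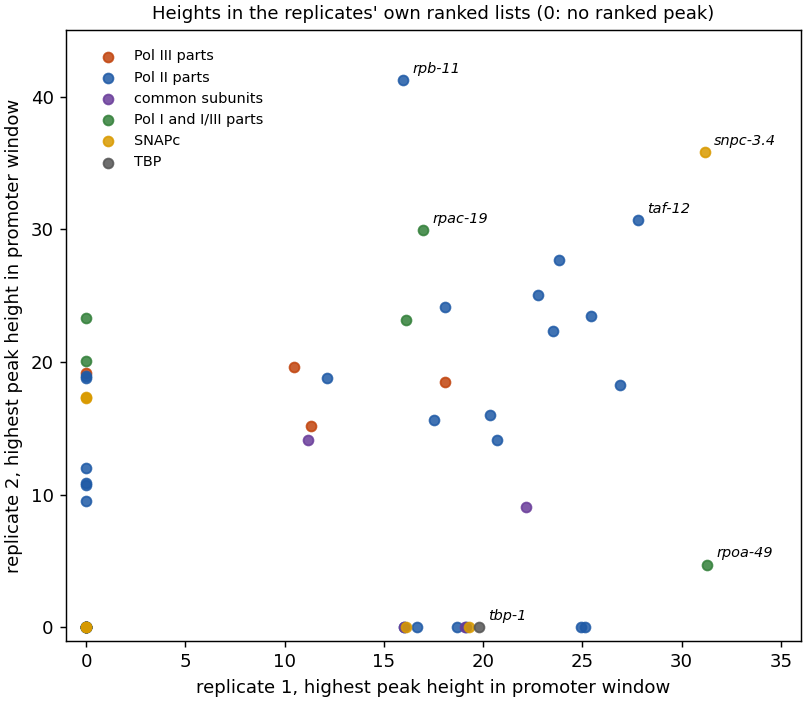
Highest promoter peak height of each member in the ranked list of replicate 1 (x axis) and of replicate 2 (y axis), coloured by role, with 0 where a list had no peak in the window. *snpc-3.4* and *taf-12* are high in both, *rpb-11* mainly in replicate 2 and *rpoa-49* mainly in replicate 1.

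The share of genes with a ranked peak in the window in both replicates was modest, for members as for all genes. The peaks of the 2 replicates were not always at the same place. Of the 57 members, 46 had a ranked peak in the series, beside 82.5% of all genes. In replicate 1 the count was 32, beside 60.1% of all genes, and in replicate 2 it was also 32, beside 53.7% of all genes. Both replicates had a peak for 21 members, 36.8% beside 39.3% of all genes. A peak in replicate 1 only was present for 11 members, beside 4143 of all 19973 genes, and in replicate 2 only for 11, beside 2878. Neither replicate had one for 14 members, 24.6% beside 25.5% of all genes. At the very place of the series summit, within 150 bp, both replicates had a peak for 17 of the 46. That count was not made over all genes, so it cannot be set against them.

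Most scores were far from the threshold. After *snpc-3.4* at 894 and *taf-12* at 638, the next highest score in any window was 483, at a weaker peak of *taf-4*, and 11 members had the lowest score of the list, 60, which is 19.3% beside 19.6% of all genes. A score of at least 200 was reached by 17 members, 29.8%, beside 34.1% of all genes. With an IDR of 0.05 in place of 0.01, an alternative chosen after seeing the data, *snpc-3.4* and *taf-12* were called, 2 of 57 beside 5.01% of all genes. In the ranked list, a score of 830 or more called 1 member beside 1.89% of all genes, and a score of 1000 called none beside 1.11%. The thresholded list called *snpc-3.4* alone both in a window of 500 bp upstream to 100 bp downstream, where 1.27% of all genes were called, and in one of 2000 bp upstream to 500 bp downstream, where 2.75% were. A thresholded summit within 5000 bp of a start was present for 4 members beside 7.37% of all genes, and within 10000 bp for 8 members beside 12.7%.

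Summits were placed both at the members' own starts and in other genes. Of the 46 strongest summits, 21 lay within 200 bp of a member's start, which is 45.7% beside 37% of all genes with a peak. The median position was 348.5 bp upstream, beside 360 bp upstream for all genes with a peak. For 9 members another gene had the nearer start, 19.6% beside 17.3% of all genes with a peak. In 13 cases the summit also lay in the window of another gene, 28.3% beside 20.8%, and 20 summits lay inside the body of another gene, 43.5% beside 24.9%. These shares were not tested, and some of the heights count for neighbours as well. No strongest summit lay within 150 bp of a tRNA, snoRNA or snRNA gene, a count that was not made over all genes with a peak.

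**Figure D4:**
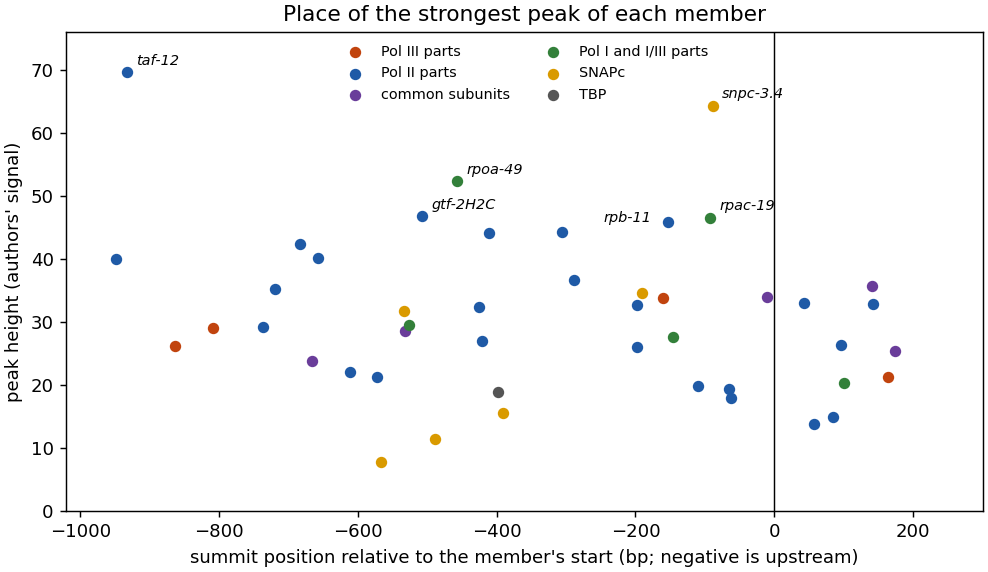
Position of the strongest summit relative to the member's own start (x axis, bp, negative is upstream) against its height in the ranked list of the series (y axis, authors' signal), for the 46 members with a peak, coloured by role. *snpc-3.4* has its summit 89 bp upstream and *taf-12* 933 bp upstream, and 9 summits lie downstream of the start.

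In the letters under their summits, the shares of members lay closer to those of all genes with a peak than to those of thresholded genes. One of the 4 GATA words lay within 75 bp of the summit for 14 of 46 members, 30.4%, beside 26.7% of all 16469 genes with a peak and 12.3% of the 374 genes in the thresholded list. ACGCAG was present for 2 members, *rpac-19* and *snpc-1.1*, 4.35% beside 5.46% of all genes with a peak and 18.2% of thresholded genes. CGCGCA was present for *snpc-3.4* and *rpb-11*, 4.35% beside 4.18% and 18.2% in the same sets. The median GC content of the windows was 39.4% for members, 39.1% for all genes with a peak and 48.3% for thresholded genes. The sets were not tested against each other.

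Other genes of the same machinery were counted by fixed lists, beside 1.87% of all genes in the thresholded list and 50% above the median height. Among 17 initiation and elongation genes, 0 were in the thresholded list and 10 lay above the median height. *ama-1*, the largest polymerase II subunit, which the name rule does not take in, had 34.4 in the series, 24.15 in replicate 1 and 8.80 in replicate 2. *ttb-1*, which encodes TFIIB, had 63.0 in the series, 38.0 in replicate 1 and 25.9 in replicate 2, close to *snpc-3.4*, and passed an IDR of 0.05 but not 0.01. Of 25 Mediator genes, 13 lay above the median height and 2, or 8%, were in the thresholded list, *mdt-26* with 129 and *mdt-19* with 107 in the series, both above every member. Of 11 Integrator genes, whose complex trims the ends of snRNAs, 0 were in the list and 7 lay above the median height. Over all 53 genes the thresholded share was 2 genes, or 3.77%, and 30 genes, or 56.6%, lay above the median height. These shares were not tested.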

How the data were processed

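The deposited data were peak lists on ce11, per the accompanying file descriptions. The signal column is the peak height given by the authors' peak caller, and the score the authors deposited restates the global IDR and is capped at 1000 (checked on all ranked peaks of the series, to within 1). Replicate lists were derived from 1 replicate each and series lists from the alignments of both, with replicates read as separate samples. Aligner and peak caller: not given in the sources used here. Peak lists hold no read counts, so depth is unknown.

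Summits were assigned to protein-coding transcript starts of Ensembl release 115 (WBcel235). Genes without a ranked peak in the window count as 0, and percentiles use mid-ranks over 19973 genes. A gene without a peak thus stands at percentile 8.8 in the series, 20 in replicate 1 and 23.1 in replicate 2. A summit could be assigned to more than 1 gene. The assignment was tested on simulated data. The members, role classes, lists and named genes were chosen with earlier results of these data known. Named were members in a thresholded list, the 12 highest, the extremes of each role, all polymerase III parts, *tbp-1* and members without a peak. Other members named were chosen after their values were seen. No significance test was run. Alternatives were other windows, starts, lists and single replicates. Python 3.11.15, numpy 2.4.6, pandas 2.3.3 and matplotlib 3.10.9 were used.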

Additional observations from a re-analysis of the deposited data

How the results depend on the processing

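The counts of thresholded members kept their values under other windows, starts, nearest-gene assignment, removal of small RNA genes and regrouping of common subunits, with *snpc-3.4* as the member each time. They were 0 with the conservative list, 0 at a score of 1000 and 0 with the list of either single replicate, and 2 at an IDR of 0.05 (polymerase II parts 1, polymerase III parts 0). In the single replicates' lists, the median height ranged from 10.75 to 12.11 for members, from 10.48 to 18.52 for polymerase III parts and from 10.75 to 15.99 for polymerase II parts, on lower scales than the series. A window of 500 bp upstream to 100 bp downstream gave medians of 13.78 for members, 14.96 for polymerase II parts and 20.68 for polymerase III parts. A window of 2000 bp upstream to 500 bp downstream gave 31.69, 35.25 and 28.98 in the same order. Nearest-gene assignment gave 20.3, 19.37 and 26.17, and leaving out genes without a peak 29.3, 32.61 and 27.57. The order of polymerase II and III parts thus changed with the window and the assignment. The median percentile of members, 48.8 in the main setting, was 40.4 with the wider window, 52.7 with the most upstream start and 43.5 with nearest-gene assignment. The cause of these shifts was not tested. Of 76 alternative values, 53 kept the same count or moved by less than 1 SD between replicates. Many of these are counts that stayed at 0. The SD comes from the medians of 2 replicates, on lower scales than the series. For polymerase III parts it was 5.69, so a fall from 26.17 to 20.68 stayed within it. The tally is thus not a measure of stability. Library depth is unknown, so no limit of detection can be given for members without a peak. No paired analysis was possible because there is 1 group.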

Other observations

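Several members had a peak in some ranked lists and not in others. *taf-8* had no peak in the ranked list of the series used here but a height of 36.7 in the other ranked list of the series, and *taf-10* had 25.5 there. Conversely, *gtf-2H5*, *taf-2*, *gtf-2F1*, *tbp-1*, *gtf-2H1*, *snpc-3.2* and *snpc-3.1* had no peak in that other list, and *rpb-2* had 11.6 there beside 32.8 in the list used here. In all, 41 members had a peak in the other list and 46 in the list used here. *gtf-2H3* had a peak of 16.0 in replicate 1 and *rpac-40* one of 20.1 in replicate 2, each without a ranked peak in the series. The 3 TFIIIC genes named tftc-, a list added after seeing the data, had 33.7 (*tftc-3*), 17.8 (*tftc-5*) and no peak (*tftc-1*) in the series.

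Apart from *snpc-3.4*, the members with a thresholded summit within 5000 bp of a start were *taf-10* (1028 bp downstream of the start), *gtf-2F1* (2180 bp upstream) and *gtf-2E2* (3008 bp upstream), all named after their values were seen. Among the polymerase III parts the nearest thresholded summit was 31797 bp away, at *rpc-25*.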
